A study of Mus musculus with 16 samples.

Results

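The extracellular matrix of the heart holds, beside its structural collagens, matricellular proteins that signal to cells, an enzyme that cross-links fibres, proteases that cut matrix and inhibitors that hold those proteases back. The 10 genes described here were chosen by symbol from the 35682 genes of the deposited count table, and each symbol matched 1 gene. They are the matricellular genes Postn, Sparc, Thbs1 and Thbs4, the adhesive glycoprotein gene Fn1, the cross-linking enzyme gene Lox, the metalloprotease genes Mmp2 and Mmp14, and the inhibitor genes Timp2 and Timp3. Adult ventricular myocytes (AVM) of 8 wild-type (WT) littermates and 8 B3AR-Tg mice, a line named for the beta-3 adrenergic receptor, were profiled by total RNA sequencing. All 16 animals had undergone transverse aortic constriction (TAC), a band around the aorta that loads the left ventricle, 9 weeks before. An unoperated group was not analysed here, so every difference below is a difference of genotype under load. The promoter and species of the transgene, the age and the sex of the mice were not given in the sources used here, and the titles call each sample a biological replicate.

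In the pressure-loaded heart, fibroblasts and other interstitial cells make most of the matrix, and periostin and lysyl oxidase are known as products of activated fibroblasts. Thrombospondins and SPARC bind collagen, growth factors or cell surface receptors, and they shape how new fibres assemble. MMP14 sits in the cell membrane and, together with TIMP2, activates the secreted gelatinase MMP2, while TIMP3 binds to the matrix itself and also inhibits ADAM-type proteases.

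Library totals ranged from 6926821 to 11584656 counts in WT and from 5985335 to 14365864 in B3AR-Tg. Mouse Adrb3, the gene the line is named for, had 0 to 4 counts per WT library and 0 to 3 per B3AR-Tg library, so it does not check the labels. Cardiac myocyte markers (6 genes, among them Myh6 and Tnnt2) summed to 31994 to 42523 CPM in WT animals, against 38486 to 45122 CPM in B3AR-Tg animals, where CPM is a count relative to the library total after TMM scaling (exact permutation p = 0.00373, adjusted over 8 marker lists 0.0149). The 6 genes did not move alike: Tnnt2 had a lower mean in B3AR-Tg (1933 ± 160 against 1731 ± 149 CPM), the other 5 a higher one, of which Myh6 added the most (17095 ± 2101 against 20580 ± 2112 CPM) and Ryr2 alone passed singly (edgeR adjusted p = 0.0359). Markers of other cells were present at far lower levels. The summed level of the 8 fibroblast markers (32.7 to 76.5 CPM in WT animals, 9.45 to 41.4 in B3AR-Tg animals) differed between genotypes (exact permutation p = 0.000932, adjusted 0.00746), and each of the 8 had a lower mean in B3AR-Tg, where 1 of the 5 that could be tested, Dcn, passed singly (edgeR adjusted p = 0.0130). Of these, the proteoglycan gene Dcn had the highest mean CPM, not scaled for length (38.0 ± 9.59 against 16.1 ± 9.12 CPM, SD, n = 8 each) and the fibroblast transcription factor Tcf21 was near 0, with 4 counts over all WT libraries and 1 over all B3AR-Tg libraries. Dcn made up most of the sum, whose means were 54.8 ± 13.6 and 24.0 ± 12.8 CPM, so the p-value of the sum rests largely on Dcn. Fewer fibroblasts and less RNA per fibroblast cannot be told apart in such bulk samples. Summed endothelial (6 genes, 76.1 to 114 against 36.1 to 137 CPM), mural (6 genes, 51.9 to 95.3 against 19.6 to 77.6 CPM) and leukocyte markers (6 genes, 4.15 to 14.3 against 0.706 to 5.99 CPM) did not pass after adjustment (adjusted exact permutation p = 0.0622, 0.0920 and 0.0622), with a lower mean in B3AR-Tg for all 6 genes of each list. For the endothelial sum, 7 of 8 B3AR-Tg animals lay below every WT animal, at no more than 72.7 CPM, and B3AR-Tg replicate 4 stood apart at 137 CPM. Omissions of single animals from these sums were added after the values were seen. Without that animal the endothelial and mural sums passed (adjusted exact permutation p = 0.00249 and 0.0286), and the leukocyte sum passed without WT replicate 3 (0.0265) or WT replicate 4 (0.0472). Of the endothelial markers, Pecam1 and Emcn fell singly (edgeR adjusted p = 0.0132 and 0.0371). The part of endothelial, mural and leukocyte content in the members' difference between genotypes was not tested. A higher mean sum in B3AR-Tg was found for activated fibroblast (4 genes, 41.1 ± 18.7 against 53.0 ± 18.4 CPM) and for epicardial and mesothelial markers (3 genes, 1.67 ± 0.869 against 2.32 ± 1.36 CPM), and neither passed (adjusted exact permutation p = 0.285 and 0.315). Nearly all of the activated fibroblast sum was Acta2, which smooth muscle also expresses (39.1 ± 17.7 against 52.3 ± 18.3 CPM), while Fap, Cthrc1 and Meox1 had lower means in B3AR-Tg and were too low to test.

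Of the 10 genes, 8 passed the low-count filter, and 6 of these were lower in B3AR-Tg at an adjusted p under 0.05 (edgeR's quasi-likelihood test, Benjamini-Hochberg over 10945 genes), against a background of 2.88% of all tested genes lower and 4.91% changed in either direction. These 6 were Postn, Sparc, Thbs4, Fn1, Mmp2 and Timp3. No member was higher at that threshold, where 2.03% of all genes were. The median log2 fold change of the 8 tested members was -1.28, beside 0.01 over all tested genes, and 7 of the 8 had a negative value. Because the filter keeps genes that are high in either group, this median describes the 8 genes that passed. For each of the 6 genes that fell, all 8 B3AR-Tg animals lay below the WT median. These genes were called from the same values, and the share of all tested genes with this pattern was not computed. The 6 calls were not retained when the mean log2 CPM of the 5 fibroblast markers past the filter entered the model as a covariate. The markers were Pdgfra, Dpt, Lum, Dcn and Pi16, and the covariate itself correlated with genotype (Pearson r = -0.68 over 16 animals). With it, 0 members and 6 genes overall passed, where 537 passed without it, and the 6 log2 fold changes stayed negative, between -1.25 (Postn) and -0.57 (Thbs4).

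**Figure D1:**
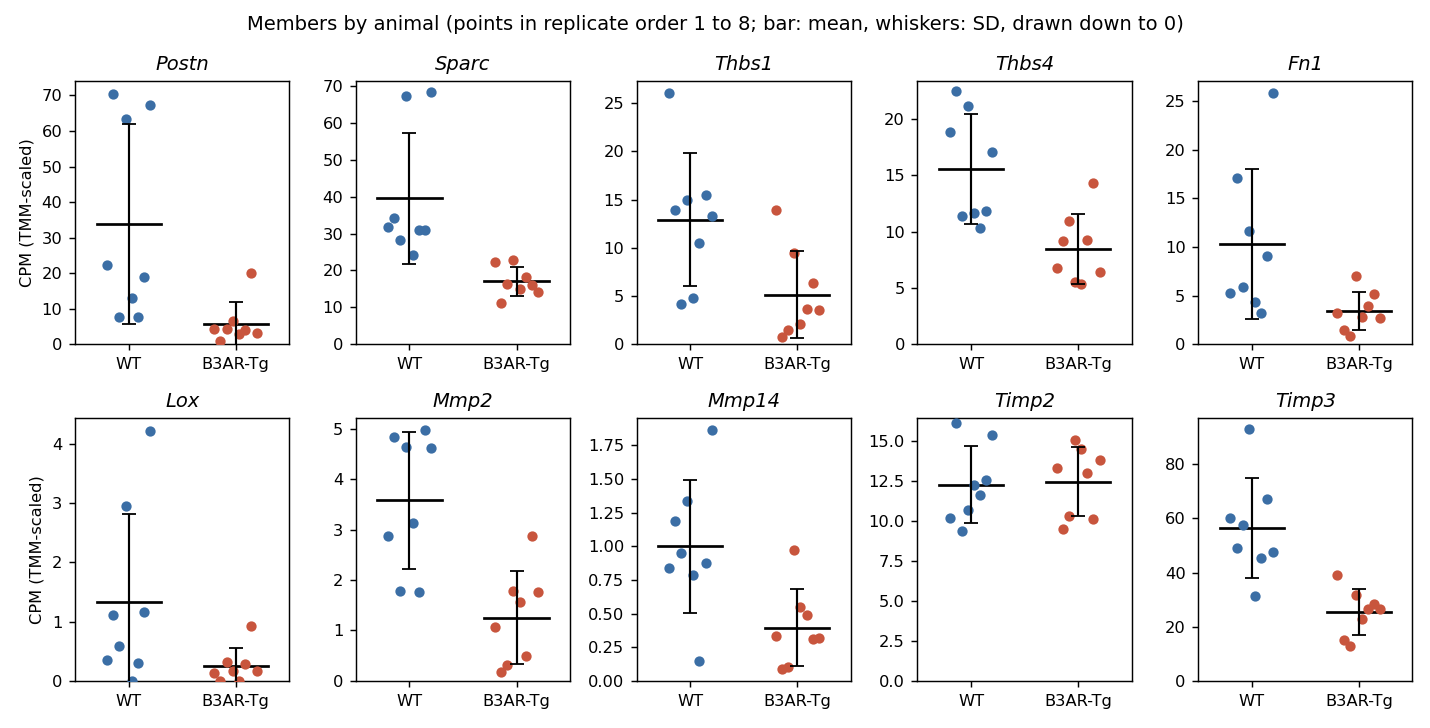
Level of each of the 10 genes in TMM-scaled CPM (linear axis from 0) for the 8 WT and 8 B3AR-Tg animals, with points in order of replicate number, the group mean as a bar and the SD as whiskers that are drawn no lower than 0. The groups are apart for Sparc only, and they coincide for Timp2.

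Stretches of DNA just before the transcription start are shown for 3 of the 6 genes that fell, with their base composition and motif matches. RefSeq windows (build GRCm38.p6) were found for 6 of the 10 members, and the 3 shown are those of called genes with most of the window outside annotated exons. Each runs 5′ to 3′ on the strand of its gene, and capitals mark matches to 6 motifs chosen for common promoter elements and for factors often linked to matrix genes: the TATA box as TATAAA, the CCAAT box by its own letters, the GC box as GGGCGG, the site of AP-1 as TGANTCA, that of SMAD proteins as CAGAC and that of TEAD factors as GGAATG. Both strands were searched.
Postn, chr3:54360857-54361106, plus strand: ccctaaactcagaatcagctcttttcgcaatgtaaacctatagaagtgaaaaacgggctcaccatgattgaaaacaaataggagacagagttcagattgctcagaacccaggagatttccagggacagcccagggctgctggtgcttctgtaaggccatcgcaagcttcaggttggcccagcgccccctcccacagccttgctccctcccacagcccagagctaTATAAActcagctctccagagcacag
Thbs4, chr13:92794819-92795068, minus strand: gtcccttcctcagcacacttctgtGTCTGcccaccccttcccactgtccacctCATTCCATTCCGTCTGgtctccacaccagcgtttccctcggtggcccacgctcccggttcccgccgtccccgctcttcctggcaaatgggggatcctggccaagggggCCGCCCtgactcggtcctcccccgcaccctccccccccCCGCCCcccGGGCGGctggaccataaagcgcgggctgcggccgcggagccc
Timp3, chr10:86300162-86300371, plus strand: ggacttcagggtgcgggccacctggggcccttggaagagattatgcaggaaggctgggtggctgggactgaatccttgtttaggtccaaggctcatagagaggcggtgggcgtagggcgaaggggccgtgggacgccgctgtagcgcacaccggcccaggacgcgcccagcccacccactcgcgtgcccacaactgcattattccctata
Postn has a pair of RefSeq windows, and the one shown, nearest to the annotated gene start, was 52.0% G or C over 250 bases and held 1 match, a TATAAA that began 26 bases before the start, an element found in 12.4% of 32851 windows of that length. The other Postn window, chr3:54359017-54359266, was 40.4% G or C and held no TATA box but 1 SMAD match, 191 bases before its own start. The Thbs4 window was 70.8% G or C and held 7 matches, 3 of the GC box, 2 of the SMAD motif and 2 of the TEAD motif, where the 2 TEAD matches share 1 base and a SMAD match follows them directly, all in a single capital run. These motifs were in 32.7%, 42.2% and 12.6% of all windows. The 210 bases of Timp3 that lie before its annotated exons were 63.8% G or C and held none of the 6 motifs. At least 1 of the 6 was found in 77.5% of 32851 stretches of 210 bases. The 40 bases of the Timp3 window that were left off, inside an annotated exon, held 1 GC box. The median over all windows of 250 bases was 52.4% G or C. The spread over all windows was not computed, so whether the 3 stretches differ more than other promoters do was not tested.

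Postn encodes periostin, a secreted protein that binds collagen and integrins (ENSMUSG00000027750, chromosome 3, 54361109 to 54391037, plus strand, GENCODE M21 on GRCm38 as for the positions below). It fell furthest of the 6. Its lowest, median and highest levels were 7.65, 20.6 and 70.5 CPM among WT animals, against 0.971, 4.03 and 20.1 among B3AR-Tg animals. In counts this was 52 to 830 per WT library and 11 to 258 per B3AR-Tg library. WT replicates 2, 4 and 8, at 70.5, 63.4 and 67.2 CPM, stood above all others, and B3AR-Tg replicate 7 was the 1 transgenic animal inside the WT range. The WT mean was 33.8 ± 28.0 CPM and the B3AR-Tg mean 5.74 ± 6.00 CPM (SD, n = 8 each), a 5.91-fold lower level with a log2 fold change of -2.56 and a standard error of 0.54 (edgeR adjusted p = 0.0110). No omission of a single animal ended the call (adjusted p at most 0.0277), and without B3AR-Tg replicate 7 the log2 fold change was -3.25.

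Sparc encodes the collagen-binding glycoprotein SPARC, or osteonectin (ENSMUSG00000018593, chromosome 11, 55394500 to 55423183, minus strand). It was the 1 member whose groups did not overlap, which was so for 0.247% of all tested genes in that direction. The lowest WT animal was at 24.1 CPM, the median at 31.4 and the highest at 68.5, against 11.1, 16.1 and 22.9 CPM in B3AR-Tg. WT replicates 4 and 8 were at 67.4 and 68.5 CPM, while the other WT animals lay between 24.1 and 34.3 CPM. The level was 2.34-fold lower in B3AR-Tg (39.5 ± 17.8 against 17.0 ± 4.02 CPM), with a log2 fold change of -1.23 and a standard error of 0.21 (edgeR adjusted p = 0.00382). Left out one at a time, no animal ended this call (adjusted p at most 0.0114).

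The thrombospondins are calcium-binding matrix glycoproteins. THBS1 is a trimer that can activate latent TGF-beta and bind CD36 and CD47, and THBS4 is a pentamer known to be induced in loaded muscle. Thbs4 (ENSMUSG00000021702, chromosome 13, 92751590 to 92794818, minus strand) lay at 10.3, 14.5 and 22.5 CPM (lowest, median, highest) among WT animals, and at 5.32, 7.97 and 14.3 among B3AR-Tg animals. It fell 1.84-fold (log2 fold change -0.88, standard error 0.21, edgeR adjusted p = 0.0207), and 2 B3AR-Tg animals, replicates 3 and 7, lay inside the WT range. Thbs1 (ENSMUSG00000040152, chromosome 2, 118111876 to 118127133, plus strand) lay at 4.15, 13.6 and 26.0 CPM among WT animals, and at 0.795, 3.58 and 13.9 among B3AR-Tg animals. WT replicate 1 was the highest WT animal and B3AR-Tg replicate 1, with 208 counts, the highest transgenic one. Its log2 fold change of -1.32 had a 95% interval from -2.24 to -0.41 and did not pass over all genes (edgeR adjusted p = 0.0891). Without B3AR-Tg replicate 1 the adjusted p was 0.0210, and without WT replicate 3 it was 0.0492, while the other 14 omissions of a single animal left Thbs1 uncalled. The within-animal log2 ratio of Thbs1 to Thbs4, chosen after these values were seen, was -0.41 ± 0.69 in WT and -1.10 ± 1.48 in B3AR-Tg, and did not differ detectably (exact permutation p = 0.258).

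Fn1 encodes fibronectin, a ligand of integrins and a scaffold for collagen assembly (ENSMUSG00000026193, chromosome 1, 71585520 to 71653200, minus strand). Its lowest WT animal was at 3.24 CPM, the median at 7.50 and the highest at 25.8, against 0.835, 3.03 and 6.98 among B3AR-Tg animals. WT replicates 8, 2 and 4 were the highest, at 25.8, 17.1 and 11.7 CPM, and 3 B3AR-Tg animals lay inside the WT range. The level fell 3.15-fold (log2 fold change -1.65, standard error 0.41, edgeR adjusted p = 0.0229). The call was lost without WT replicate 8 (adjusted p = 0.0549) and without B3AR-Tg replicate 5 (0.0514).

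Lox encodes lysyl oxidase, which oxidises lysines of collagen and elastin so that fibres cross-link (ENSMUSG00000024529). Its counts were too few for the filter. WT replicates 1 to 8 held 3, 13, 5, 33, 0, 2, 8 and 43 counts and B3AR-Tg replicates 1 to 8 held 2, 0, 3, 1, 0, 3, 12 and 2. The high values belonged to WT replicates 4 and 8, and 5 WT libraries against 1 B3AR-Tg library held more than 3 counts, the number taken as the floor of detection. Over all libraries WT animals summed to 107 counts and B3AR-Tg animals to 23. The means, 1.34 ± 1.48 and 0.250 ± 0.300 CPM, differed in a permutation of the animals (exact permutation p = 0.0287, two-sided, not adjusted), whereas edgeR without the filter gave an adjusted p of 0.0678 and DESeq2 0.0315.

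Mmp2 encodes gelatinase A, a secreted protease that cuts denatured and basement membrane collagen (ENSMUSG00000031740, chromosome 8, 92827291 to 92853420, plus strand). The WT animals lay at 1.77, 3.88 and 4.98 CPM (lowest, median, highest, from 12 to 57 counts per library). The B3AR-Tg animals lay at 0.177, 1.32 and 2.88 CPM (2 to 37 counts). The lowest transgenic animals, replicates 2 and 3, held 2 and 3 counts, at the floor, and replicate 7 was the highest. The level fell 2.85-fold (log2 fold change -1.51, standard error 0.39, edgeR adjusted p = 0.0290). This call was lost on leaving out any 1 of 5 animals, WT replicates 2, 4 and 8 and B3AR-Tg replicates 5 and 6, with adjusted p-values between 0.0513 and 0.0658.

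Mmp14 encodes the membrane-type protease that activates pro-MMP2 (ENSMUSG00000000957, chromosome 14, 54431612 to 54445364, plus strand). It was the lowest member per length in WT and did not pass the filter. WT replicates 1 to 8 held 7, 14, 8, 15, 6, 1, 6 and 19 counts, and B3AR-Tg replicates 1 to 8 held 5, 1, 1, 6, 6, 5, 4 and 4. WT libraries held 76 counts in all and B3AR-Tg libraries 32, although the B3AR-Tg libraries were on average the larger. Means were 0.999 ± 0.496 and 0.397 ± 0.284 CPM (exact permutation p = 0.00901, not adjusted), and edgeR without the filter gave an adjusted p of 0.121, against 0.0392 by DESeq2.

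The TIMP genes, whose products inhibit metalloproteases, went separate ways. Timp3 (ENSMUSG00000020044, chromosome 10, 86300372 to 86349506, plus strand, its promoter stretch shown above) was well counted, at 240 to 1044 counts per WT library and 124 to 583 per B3AR-Tg library. The lowest, median and highest WT animals were at 31.4, 53.3 and 93.2 CPM, and the same of B3AR-Tg at 12.9, 26.5 and 39.0. Only B3AR-Tg replicates 1 and 4, at 39.0 and 31.7 CPM, reached into the WT range, through WT replicate 5 at 31.4 CPM. Timp3 fell 2.23-fold (log2 fold change -1.15, standard error 0.21, edgeR adjusted p = 0.00485), and no omission of a single animal ended the call (adjusted p at most 0.0136). The gene overlaps Syn3 on the other strand, which averaged 0.205 CPM.

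Timp2 (ENSMUSG00000017466, chromosome 11, 118301069 to 118355740, minus strand) lay at 9.37, 12.0 and 16.1 CPM (lowest, median, highest) among WT animals, against 9.54, 13.2 and 15.1 among B3AR-Tg animals. The groups coincided, and its spread was the smallest of the 10 (coefficient of variation 19.6% in WT and 17.3% in B3AR-Tg). The log2 fold change was 0.01 with a 95% interval from -0.26 to 0.29 (edgeR adjusted p = 0.974). It overlaps Cep295nl on the same strand, which averaged 0.0278 CPM. The difference between the 2 inhibitors was tested on log2 CPM within each animal, which nearly removes the scaling of libraries. The log2 ratio of Timp3 to Timp2 was 2.14 ± 0.61 in WT and 0.95 ± 0.42 in B3AR-Tg, lower by 1.19 (exact permutation p = 0.000777, adjusted over the 3 ratios tested 0.00186), with 8 of 8 B3AR-Tg animals below the WT median. The log2 ratio of Mmp2 to Timp2 was likewise lower in B3AR-Tg, at -3.41 ± 0.98 against -1.80 ± 0.47 (exact permutation p = 0.00124, adjusted 0.00186), in 8 of 8 animals. In B3AR-Tg replicates 2 and 3, at 2 and 3 Mmp2 counts, the prior count of log2 CPM makes this ratio less negative. Both ratios were chosen after the values were seen. They restate the lower Timp3 and Mmp2 beside an unchanged Timp2, so their p-values are no further support for those calls. Without any single animal, the exact permutation p of both ratios stayed at or below 0.00280.

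**Figure D2:**
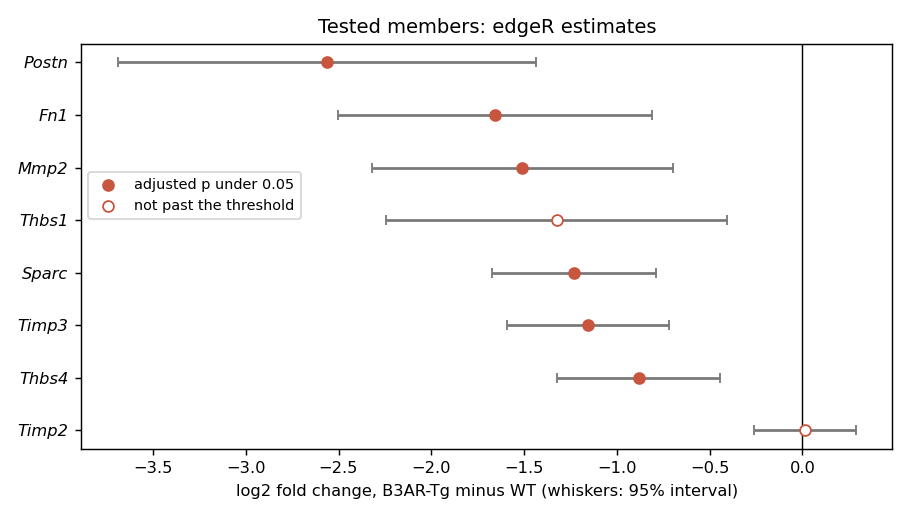
log2 fold change of the 8 tested members, B3AR-Tg minus WT, with 95% intervals from edgeR, where filled points have an adjusted p under 0.05. The 6 filled points lie between -2.56 (Postn) and -0.88 (Thbs4), Thbs1 is open at -1.32 and Timp2 is open at 0.01.

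The members were ranked by level per length, as CPM per kilobase of annotated exons. In WT the order from the highest was Sparc (10.4 ± 4.69), Timp3 (6.94 ± 2.26), Thbs4 (4.74 ± 1.48), Postn (3.89 ± 3.22), Timp2 (3.16 ± 0.618), Thbs1 (2.12 ± 1.13), Mmp2 (1.06 ± 0.404), Fn1 (0.882 ± 0.664), Lox (0.280 ± 0.310) and Mmp14 (0.168 ± 0.0832). No pair of neighbours in this order differed by more than the larger of their SDs. In B3AR-Tg, Sparc was still the highest (4.49 ± 1.06) and above Timp2 (3.20 ± 0.554) in 8 of 8 animals. Timp2 thus stood at rank 5 in WT and at rank 2 in B3AR-Tg, where it did not differ from Timp3 (3.12 ± 1.05) beyond their spread. Postn went from rank 4 to rank 6 (0.660 ± 0.689).

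Within a genotype, the same few animals stood high or low for many members. WT replicate 4 was among the 3 highest WT animals for 9 of the 10 members, replicate 2 for 7 and replicate 8 for 6, while replicates 3, 5 and 6 were among the 3 highest for none. In B3AR-Tg, replicate 4 was among the 3 highest for 8 members and replicate 7 for 7, and replicate 2 was the lowest animal for 6. WT replicates 4, 2 and 8 had the largest WT libraries, but WT replicate 7, among the 3 highest for 5 members, had the smallest. B3AR-Tg replicate 4 had the smallest library of all (5985335 counts) and the highest endothelial sum (137 CPM). Whether other genes rank the animals alike was not computed, and a part of library size was not tested. Without WT replicate 4, without WT replicate 8 and without B3AR-Tg replicate 5, 4 members were lower at the threshold in place of 6. Thbs4 was among those lost in the omission of WT replicate 4 (adjusted p = 0.0505).

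Within a genotype, 8 animals did not resolve a relation between the members and the fibroblast markers. Over 20 correlations (10 members, 2 genotypes) of log2 CPM with the mean log2 CPM of the 5 fibroblast markers past the filter, none passed after adjustment (exact permutation, lowest adjusted p = 0.252). Each Pearson r was positive, from 0.04 (Sparc in WT) to 0.76 (Postn in B3AR-Tg). The members share the same animals, so these signs are not independent. In B3AR-Tg, r was 0.73 for Thbs1 (exact permutation p = 0.0433, not adjusted) and 0.73 for Lox (p = 0.0336, not adjusted). For Postn, Pearson r was 0.58 in WT (exact permutation p = 0.126, Spearman rho 0.62, p = 0.115) and 0.76 in B3AR-Tg (p = 0.0150, rho 0.76, p = 0.0368). Leaving out the 2 animals farthest from the median marker level took these to 0.04 and 0.62, over a narrower range of marker levels. For Sparc, r was 0.04 in WT (exact permutation p = 0.905, rho 0.31, p = 0.462) and 0.55 in B3AR-Tg (p = 0.164, rho 0.40, p = 0.327), and 0.04 became -0.07 and 0.55 became -0.08 without the 2 farthest animals. For Mmp2 in B3AR-Tg, r was 0.62 (exact permutation p = 0.107, rho 0.76, p = 0.0368) and rose to 0.98 without them (adjusted p = 0.0278). With endothelial markers in place of fibroblast markers, 0 of the 20 correlations passed. The lowest adjusted p was 0.0541, for Mmp14 in B3AR-Tg (r = 0.89, exact permutation p = 0.00270), at 1 to 6 counts per library. For Sparc, r with the endothelial markers was 0.79 in B3AR-Tg (exact permutation p = 0.0241, adjusted 0.132) and -0.21 in WT (p = 0.605). The covariate correlated with genotype and cannot separate fibroblast content from it. The part of fibroblast content in the difference between genotypes was therefore not tested.

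**Figure D3:**
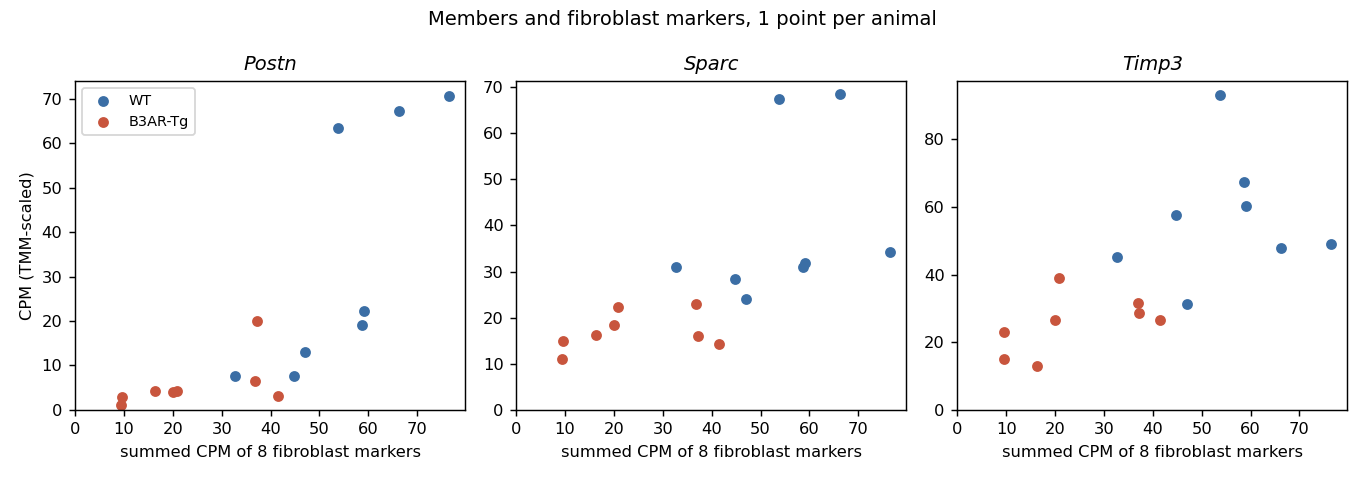
Postn, Sparc and Timp3 in CPM against the summed CPM of the 8 fibroblast markers, 1 point per animal, with both axes linear from 0. B3AR-Tg animals lie between 9.45 and 41.4 CPM of markers and WT animals between 32.7 and 76.5, and WT replicates 4 and 8 stand high for Sparc at marker levels inside the range of the other WT animals.

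The tested genes outside the list whose pattern was most like it were found by Pearson correlation, over 16 animals after centring within genotype, with the mean standardised level of the 8 tested members. They were Bgn (r = 0.92), which encodes the small proteoglycan biglycan, Ckap4 (0.90), Rtn4 (0.89), Tln1 (0.89), which encodes the integrin adaptor talin, and Col3a1 (0.88), which encodes a fibrillar collagen. Bgn had a log2 fold change of -1.57 between genotypes (edgeR adjusted p = 0.0223), Col3a1 of -1.76 (0.00397) and Ckap4 of -0.75 (0.0464). Rtn4 (-0.37, adjusted p = 0.282) and Tln1 (-0.23, 0.364) did not pass. Among the members themselves, Postn (0.89) and Fn1 (0.89) followed the common level most and Thbs4 (0.34) least. Each member is itself part of that mean, which raises its r, so these values do not compare with those of the outside genes.

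Other genes of matrix assembly and turnover were read from lists of 71 genes written by role. Of these, 40 were tested. In B3AR-Tg, 7 were lower and 2 higher at an adjusted p under 0.05, where 2.88% and 2.03% of all tested genes were. These shares are also the background for the counts of each list below. The other 31 did not pass, and the median log2 fold change of the 40 was -0.33 beside 0.01 over all genes. With the fibroblast covariate, the calls of all 7 that fell and of Mmp15 were lost (edgeR adjusted p between 0.180 for Pcolce2 and 0.577 for Loxl2), and Serpine2 alone was still called (0.0331). Among 8 tested matricellular and adhesive glycoproteins, 2 fell. Cilp, a fibroblast matrix protein, had a WT mean of 9.97 ± 8.76 CPM against 1.39 ± 1.79 CPM (log2 fold change -2.84, edgeR adjusted p = 0.0137), and Ccn4, which encodes the CCN family protein WISP1, one of 3.54 ± 0.967 CPM against 1.78 ± 0.741 CPM (-0.99, 0.0275). Ccn1 (58.8 ± 11.1 against 59.8 ± 43.9 CPM) and Ccn2 (98.6 ± 72.2 against 49.3 ± 56.6 CPM) did not pass. The Ccn4 call was lost without WT replicate 4 or WT replicate 8 (adjusted p at most 0.0610).

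Among 13 tested genes of collagen cross-linking and processing, 3 fell and none rose. They were Loxl2, a relative of Lox (log2 fold change -1.49, edgeR adjusted p = 0.0191), Pcolce2, an enhancer of procollagen cleavage (-0.98, 0.00931), and the transglutaminase Tgm2 (-0.70, 0.0286). The Tgm2 call was lost with library totals as the only scaling and without WT replicates 4 or 8 or B3AR-Tg replicates 5, 6 or 8 (adjusted p at most 0.0697 over the omissions). Collagen-modifying enzymes that act inside the cell did not pass, among them Plod1 (27.8 ± 5.15 against 35.0 ± 7.84 CPM) and P4ha1 (80.3 ± 16.8 against 70.9 ± 30.1 CPM). Among 6 tested proteases, Mmp15, a membrane-type protease, was higher in B3AR-Tg (30.6 ± 9.52 against 44.4 ± 2.68 CPM, log2 fold change 0.54, adjusted p = 0.0426), a call lost with upper-quartile scaling and on leaving out any 1 of 12 animals, WT replicates 1, 2, 5, 6 and 8 and B3AR-Tg replicates 1 to 6 and 8 (adjusted p up to 0.0865). Of the 9 tested receptors, 1 passed: Sdc4, a heparan sulphate proteoglycan that binds fibronectin, fell from 34.5 ± 7.50 to 18.0 ± 5.54 CPM (-0.94, adjusted p = 0.00507). Lrp1, an endocytic receptor that takes up proteases and thrombospondins, did not pass but had a log2 fold change of -0.79 with a 95% interval from -1.29 to -0.29 (edgeR adjusted p = 0.0609, named after its value was seen) and 8 of 8 B3AR-Tg animals below the WT median. The same held, likewise named after the fact, for Timp1 (-1.15, adjusted p = 0.0585), the tissue plasminogen activator gene Plat (-0.76, 0.0593) and the tenascin gene Tnxb (-0.93, 0.0990), each with 8 of 8 B3AR-Tg animals below the WT median and an interval below 0. Sparcl1, P4ha2, Adamts2, Adamts9 and Itgb1 also had an interval below 0, with fewer such animals. Of all tested genes, 10.6% were lower in B3AR-Tg at an unadjusted edgeR p under 0.05, which such an interval goes with. The share of all genes with 8 of 8 animals on 1 side of the WT median was not computed. In the other direction, Mmp11 (0.57, edgeR adjusted p = 0.249) and Plod1 (0.34, 0.155) did not pass either. Both had an interval above 0 and 0 B3AR-Tg animals below the WT median. The thrombospondin receptors Cd36 (log2 fold change -0.03) and Cd47 (0.01) and the integrin Itgb1 (-0.24) did not pass.

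Protease inhibitors went both ways. Timp4, an inhibitor enriched in heart, was lower (6.98 ± 2.75 against 3.42 ± 1.62 CPM, log2 fold change -1.05, edgeR adjusted p = 0.0376), a call lost with library totals as the only scaling and on leaving out any 1 of 10 animals, WT replicates 1 to 4 and 7 and B3AR-Tg replicates 2 and 5 to 8 (adjusted p up to 0.0850). Serpine2, which encodes protease nexin-1, an inhibitor of thrombin and plasminogen activators, stood at 2.23 ± 0.621 CPM in WT animals and rose to 4.40 ± 1.23 CPM (log2 fold change 0.96, standard error 0.21, edgeR adjusted p = 0.0130). All B3AR-Tg animals (3.18 to 6.50 CPM) lay above all WT animals (1.18 to 3.14 CPM), which was so for 0.201% of tested genes, and the call held at the 0.05 threshold under all 23 alternatives, the fibroblast covariate included.

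**Figure D4:**
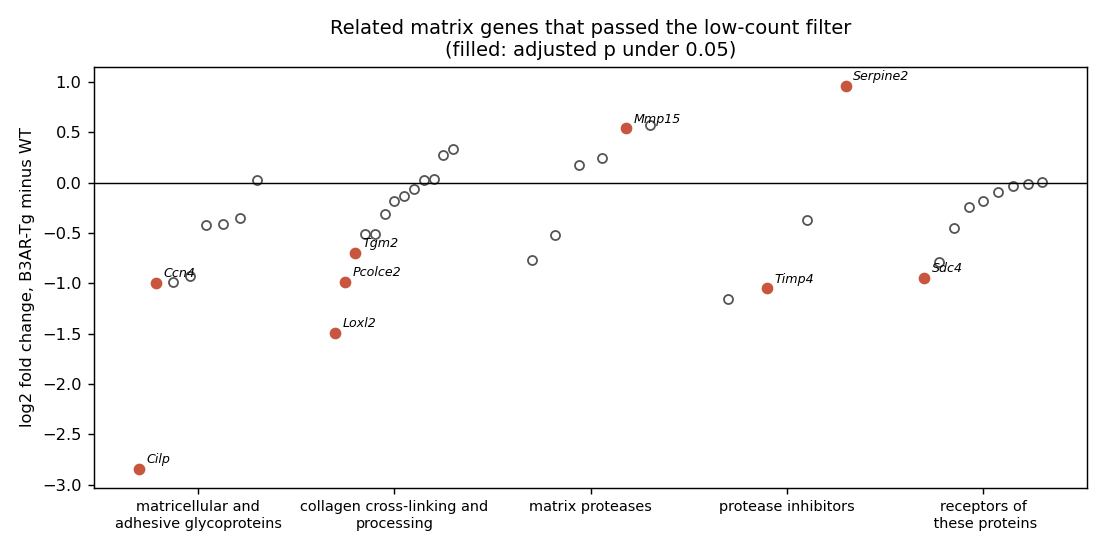
log2 fold change, B3AR-Tg minus WT, of the 40 tested genes of the 5 related lists, each point a gene, filled where the adjusted p is under 0.05. The 7 filled points below 0 run from Cilp at -2.84 to Tgm2 at -0.70, and Serpine2 and Mmp15 are the 2 above 0.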

How the data were processed

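Total RNA, ribodepleted, from plated ventricular myocytes of 16 mice (500 ng each) was sequenced from both ends as stranded libraries, per the labels' protocols. The authors deposited whole-number counts per gene with no normalization; Salmon and the build GRCm39 are named in the submitters' processing notes without version or role, so the counts may be rounded estimates. Columns were matched to animals by the names in the titles. Genes were filtered (filterByExpr, minimum count 10, minimum total 15), scaled with TMM and tested in edgeR 4.0.16 (R 4.3.3) with genotype alone. Two-sided tests, Benjamini-Hochberg over 10945 genes and a threshold of 0.05 were used. log2 CPM used a prior count of 2. Exact permutations covered 12870 splits of the animals or 40320 pairings. The floor of 3 counts, 0.201 to 0.487 CPM, covers counting error only.

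The same-numbered animals of the genotypes were not treated as pairs. Genes were named by rule: all members, up to 4 related genes per list and direction with the smallest p, marker extremes, and the 5 genes most alike; not every marker it covers is reported, and 1 of the 8 marker lists is not reported here. The members, lists and tests were chosen with earlier results of these data known. Alternatives covered scaling, the filter, DESeq2 1.42.0, the block, the fibroblast covariate, thresholds and each animal. Positions and exon lengths are from GENCODE M21 (GRCm38), matched by gene ID.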

Additional observations from a re-analysis of the deposited data

Results flagged for a closer look

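Each member was checked in each genotype for a single animal at the top or bottom that stood apart, meaning that its distance to the nearest animal, on the log2 CPM scale, filled more of the group's range than Dixon's 95% limit for 8 values. Among 20 groups, 1 such animal was found, and chance gives about 1 in 20. Mmp14 in WT replicate 6 was low, with a gap of 0.584 of the range. This library held 1 count, or 0.147 CPM, while the remaining WT libraries lay between 0.785 and 1.87 CPM, and 1 count lies under the floor of 3 counts.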

How the results depend on the processing

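Of 184 log2 fold changes of single members recomputed under 23 alternatives, 159 kept their sign and their side of the threshold, and the 6 that changed sign were all of Timp2, on leaving out single animals (-0.035 to 0.086 over the 16 omissions). The number of members lower in B3AR-Tg was 6 under RLE, upper-quartile and library-total scaling and without the filter, 8 with DESeq2, 2 at an adjusted p under 0.01, 0 with the fibroblast covariate, and 4 to 7 on leaving out single animals. Members higher stayed at 0. All genes called numbered 537, against 109 at 0.01, 908 at 0.1, 840 with DESeq2, 6 with the covariate, and 272 (without WT replicate 4) to 675 (without WT replicate 3), with 277 and 345 without B3AR-Tg replicates 5 and 8. Related genes lower numbered 7, against 2 at 0.01, 11 at 0.1, 14 with DESeq2, 0 with the covariate, and 4 (without WT replicate 4) to 11 (without B3AR-Tg replicate 4). Related genes higher numbered 2, against 0 at 0.01, 1 with upper-quartile scaling, 1 with the covariate and 1 to 2 on leaving out single animals. Correlations with fibroblast markers past the threshold numbered 0, and 1 without the 2 farthest animals.

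With the replicate number as a block, 5 members, 230 genes in all, 3 related genes lower and 1 higher passed. The related calls lost were Cilp, Ccn4, Tgm2, Timp4 and Mmp15. Thbs4 (adjusted p = 0.0606) and Fn1 (0.0679) were then not called and Thbs1 was (0.0183). The numbers do not pair the animals: same-numbered animals deviated together by correlations of -0.22 to 0.09, and 0 animals correlated best with their own number. Lox, at 0 to 43 counts per library, and Mmp14, at 1 to 19, did not pass the count filter. The cause of these shifts was not tested.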

Other observations

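Of the 71 related matrix genes, 31 were too low for the filter and have no test. Their mean CPM was lower in B3AR-Tg for 26 and higher for 4, and Mmp8 had 0 counts in all libraries. The share of lower means among all genes that the filter removed was not computed. The 26 can therefore not be read as particular to matrix genes. The following were chosen after their values were seen. Comp, a pentameric relative of Thbs4, had 128 counts over the WT libraries and 17 over the B3AR-Tg libraries (1.59 ± 1.59 against 0.228 ± 0.285 CPM). Tgfbi, a collagen-binding relative of Postn, had 116 and 27 counts (1.51 ± 1.36 against 0.332 ± 0.218 CPM). Loxl3, a relative of Lox, had 63 and 20 counts, and Reck, a membrane-anchored inhibitor of metalloproteases, 43 and 11.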
